A study of Triticum aestivum with 78 samples.

Results

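Line A35 is 1 of 39 wheat lines whose developing seed was profiled on Affymetrix wheat arrays, and it was set here against 33 of the other lines. Its members are the 2 arrays titled with its name, of 78 arrays in all. The comparison used 66 arrays of the other lines, and the 10 arrays of lines H8, H9, G30, G13 and B33 were left out. The cross RL4452 x AC Domain gave rise to all lines, which were grown together in the field in a lattice design, with no treatment given in the labels. Each line had 2 biological replicates of seed taken 5 days after anthesis. The field replication and the number of plants behind an array are not given in the labels, so the p-values below measure the spread between replicate arrays only.

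Lines of a mapping population each carry their own mixture of the parents' chromosome segments. Where the parents' versions of a gene differ in expression, the lines tend to fall into a low and a high class at that gene, and a line can also stand apart for reasons of its own field position, sampling or RNA. At this stage the wheat grain is mostly maternal pericarp around an endosperm that has only begun to form cells, and storage protein and starch accumulation lie ahead. Genes active at this stage include those of lipid transfer proteins, small secreted proteins that bind and carry lipids and are abundant in the outer tissues of grains.

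The values were the RMA intensities of the authors' deposited table on the log2 scale. Each of 61115 probe sets was fitted with limma in 1 model over 34 lines, with line as a factor and replicate number as a block, and A35 was contrasted with the mean of the other 33 line means. A probe set was called at a two-sided Benjamini-Hochberg adjusted p below 0.05 over all 61115. The median level of all probe sets was 5.07. Levels below it were not shown to exceed background, so differences there hold for intensities only. The number in a name such as Ta.1282 is that of the sequence cluster behind the probe set, and most probe sets have no gene name in the annotation used here. Common wheat has 3 similar copies of most genes that a probe set can read together. A base difference under a probe cannot be told apart from a difference in RNA level, and the probe sequences were not analysed.

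The arrays of A35 resembled each other about as much as those of the other lines did. Over the probe sets at or above the median level the correlation between its replicates was 0.977, the median of the other lines was 0.976, and 20 of the 33 other lines had a lower value. The array nearest to A35 replicate 1 was replicate 2 of line DH91, at 0.980. Replicate 1 was the only array of its scan day, while replicate 2 shared its day with 9 arrays of other lines. The mean log2 difference between 3′ and 5′ probe sets of 3 control transcripts, which grows as RNA or its copies shorten, was 4.10 and 3.97 in A35. In the other arrays it ran from 2.36 through a median of 3.25 to 4.46, and 9 of them reached the lower A35 value. A35 therefore lay in the upper part of that range without leaving it.

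A35 differed from the other lines at 2945 of 61115 probe sets, or 4.82%. Of these, 2091 (3.42%) were higher and 854 (1.4%) were lower in A35. In all, 11251 probe sets had an unadjusted p below 0.05. No other line had as many calls against its own remaining lines: F36 followed with 1730 and DH91 with 1560, the median of the 33 was 526, and F38a had the fewest at 127. F36 was the line with the most lower calls. These comparisons share arrays, so they are given side by side only. Over all probe sets, called or not, both A35 arrays lay on the same side of the other arrays of their replicate number at 64.7%, against a median of 54.8% and a highest of 63.4% in the other lines. The calls rest on the mean of the same 2 arrays, so that share is near complete among them by choice, at 2941 of 2945. The median difference was 0.75 log2 units (1.68-fold) among the higher and 0.68 (1.60-fold) among the lower. At least 2-fold differences were found at 630 higher and 253 lower probe sets, and at least 4-fold differences at 120 and 71. In seed tissue as a whole, fewer cells of a type and less RNA per cell cannot be told apart.

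**Figure D1:**
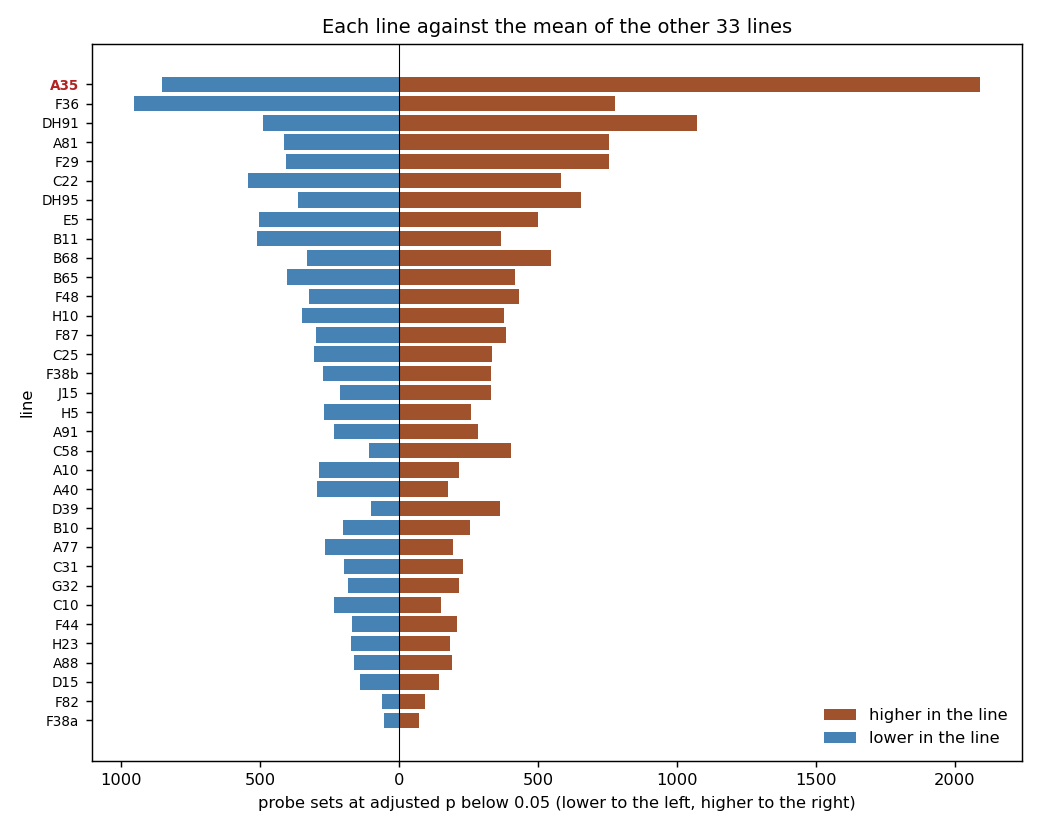
Number of probe sets at adjusted p below 0.05 for each of the 34 lines against the mean of the other 33, with lower calls to the left of 0 and higher calls to the right. A35, at the top, had 2091 higher and 854 lower probe sets, and the median line had 526 in all.

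The count of A35 depended on the arrays and on what was taken as error. It was 560 without A35 replicate 1, 1154 without A35 replicate 2, and 529 when scan day was fitted as a fixed term, which leaves A35 resting on replicate 2 alone. With line as a random block, which puts the spread between lines into the error, 96 probe sets (0.157%) were called, 87 of them higher. The split between directions depended on scaling: after subtracting each array's 75th percentile, 1524 were higher and 1470 lower, so the higher share moved from 71.0% to 50.9%, and the median difference of all probe sets moved from −0.03 to −0.10. Directions below are relative to the deposited scaling. The called named genes and the 10 largest differences each way kept direction and call under that scaling and after a further quantile normalization. With the 3′ to 5′ measure in the model 1996 probe sets were called, 1646 of them among the 2945.

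Among the 200 probe sets with a gene name other than a locus number, 7 were called (3.5%, against 4.82% of all probe sets), and all 7 were lower in A35, where 1.4% of all probe sets were lower. They belonged to 6 genes: LTP3, cys1, GBSS, 6-FEH, GLU1A and Prx1. LTP3 and cys1 were singled out with earlier results of these data known, so their calls are no independent evidence. None of the 7 stayed called when scan day was fitted as a fixed term or when A35 replicate 1 was left out, 5 did with scan day as a random block, and 3 stayed called without A35 replicate 2. All 7 stayed called after both other scalings.

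LTP3 encodes a lipid transfer protein. Its probe set Ta.1282.1.S1_x_at measured 12.99 and 13.14 in A35. The other arrays ran from 12.60 through a median of 13.82 to 14.25. A35 thus lay low within the range of the others, and 1 other line had a mean at or below it. The difference was −0.71 ± 0.15 log2 units (SE), or 1.64-fold lower, at an adjusted p of 0.00239. Over the alternatives the adjusted p ran from 0.00084 to 0.308, the highest with scan day fixed. The second LTP3 probe set, Ta.1282.4.S1_at, measured 4.99 and 4.39 in A35 against a median of 5.37, near the overall median level, and was not called (adjusted p = 0.432).

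The rest of cluster Ta.1282, added to the text after its values were seen, was lower too. Of its 5 probe sets, 4 were lower in A35, against 1.4% of all probe sets. Ta.1282.3.S1_x_at measured 13.78 and 13.67 in A35, while the other arrays ran from 13.76 through a median of 14.02 to 14.25. The difference was −0.29 ± 0.06 (1.22-fold, adjusted p = 0.00223), and no other line mean was as low. Ta.1282.2.S1_at and Ta.1282.2.S1_x_at were lower by −0.26 ± 0.07 and −0.32 ± 0.07, at adjusted p values of 0.0316 and 0.00735. Their calls were lost in 9 and 5 of the alternatives, and that of Ta.1282.3.S1_x_at in 4. Probes of these sets may read one another's transcripts, so the 4 are not separate measurements of separate genes.

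Both probe sets of cys1 were lower in A35. Ta.99.1.S1_at measured 10.67 and 10.64, and the other arrays ran from 10.76 through a median of 11.14 to 11.52. Both A35 arrays were below every other array in the comparison, although the lowest array of the lines left out reached 10.51. The difference was −0.51 ± 0.10 (1.42-fold, adjusted p = 0.00118). Over the alternatives the adjusted p ran from 0.000248 to 0.244, and it was 0.0298 with line as a random block, the only named gene called there. Ta.99.1.S1_x_at measured 11.13 and 11.30 against a range of 11.23 to 11.99 and a median of 11.64. It differed by −0.45 ± 0.10 (1.37-fold, adjusted p = 0.00241), with a highest adjusted p of 0.414 over the alternatives.

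GBSS, granule-bound starch synthase, makes the amylose of starch. Its probe set Ta.2795.1.S1_a_at measured 8.20 and 7.84 in A35. The other arrays spread widely, from 7.18 through a median of 9.55 to 11.59. A35 was therefore among the low lines rather than beyond them, and 3 other lines had means at or below its own. The difference was −1.47 ± 0.37 (2.77-fold, adjusted p = 0.0116), and the adjusted p ran from 0.00313 to 0.494 over the alternatives.

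6-FEH encodes a fructan exohydrolase, an enzyme that breaks down the fructans stored in young grain and stems. Its probe set Ta.30950.1.A1_x_at measured 7.91 and 7.77 in A35 against a range of 6.34 to 10.69 and a median of 9.09. The difference was −1.15 ± 0.33 (2.22-fold, adjusted p = 0.0351), and 5 other lines were at or below A35. The call was lost in 10 of the alternatives, over which the adjusted p ran from 0.0158 to 0.508, and it was 0.0657 without the replicate block. The other 6-FEH probe sets, Ta.9641.1.A1_a_at and TaAffx.93410.1.S1_at, were not called, at −0.20 ± 0.29 and −0.39 ± 0.22. The call of this gene thus rests on 1 of its 3 probe sets.

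GLU1A, a wheat beta-glucosidase gene, and Prx1, a peroxidase gene, completed the named calls. The GLU1A probe set Ta.4601.2.S1_at measured 7.09 and 7.26 against a range of 6.11 to 10.51 and a median of 8.66, a difference of −1.30 ± 0.40 (2.46-fold). Its adjusted p of 0.049 was just under the threshold, reached 0.0557 when 1 other array was left out, and ran from 0.000391 to 0.566 over the alternatives, with 0.0573 without the replicate block. Prx1 was called at 1 of its 4 probe sets, Ta.6572.3.S1_at, with 4.75 and 4.39 against a range of 4.45 to 5.74 and a median of 5.17. The difference there was −0.57 ± 0.14 (1.48-fold, adjusted p = 0.0131, from 0.00525 to 0.435 over the alternatives), at an intensity close to the median of all probe sets. Its other probe sets differed by −0.10, −0.16 and −0.30 and were not called.

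**Figure D2:**
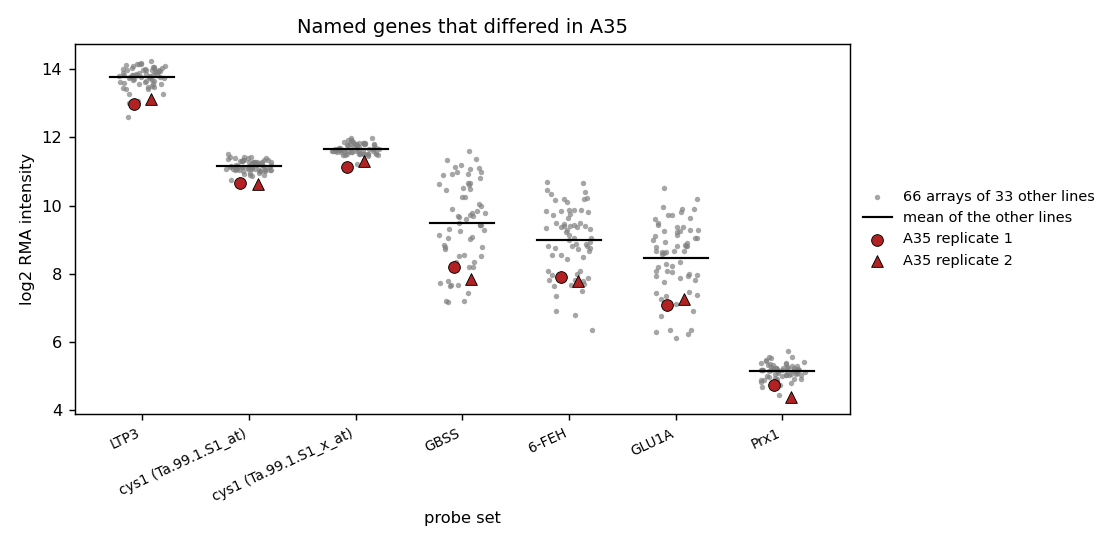
Log2 RMA intensity of the 7 called probe sets with a gene name, with 1 grey point for each of the 66 arrays of other lines, a line for their mean, and red symbols for the 2 A35 arrays. The A35 arrays of cys1 and Prx1 sit at the lower edge of the others, and those of GBSS, 6-FEH and GLU1A sit inside a wide spread.

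Genes of these pathways were followed through lists of symbols that together held 150 probe sets. Of these, 6 were called (4.0%, near the 4.82% of all probe sets), all 6 lower. They are the called probe sets of LTP3, cys1, GBSS, 6-FEH and Prx1 described above, so they add no further evidence. Over all probe sets 1.4% were called lower and 3.42% higher, the median difference was −0.03 and 44.2% were positive. The list of lipid transfer and cys symbols held only the probe sets of LTP3 and cys1, chosen beforehand. There 3 of 4 were lower, and the median difference was −0.61. Among starch, sugar and fructan genes, 2 of 10 were lower and none higher. All 10 differences were negative, with a median of −0.17. AGP-S, which supplies the sugar nucleotide for starch, was at 10.86 and 10.91 in A35 against a median of 10.99 and was not called. Among peroxidase and detoxification genes 1 of 9 was lower, the median was −0.30, and all 9 differences were negative. PER1, whose synonym is peroxidase but which the symbols of the list did not take, had −0.29 ± 0.18 at Ta.14503.1.S1_at and 0.05 ± 0.16 at Ta.24688.2.S1_a_at, neither of them called.

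Inhibitor and thionin genes, which are markers of the later endosperm, were not called in any of 15 probe sets, yet all 15 differences were negative with a median of −0.73. Some arrays of other lines carried high values at part of these probe sets. In the example that follows, the median of the other arrays was above both A35 arrays too. THI1.1, a thionin gene, measured 4.62 and 4.87 in A35 at Ta.23967.1.S1_s_at, while the other arrays ran from 4.43 through a median of 6.27 to 11.66 (−1.96 ± 0.89, adjusted p = 0.223). The mean over the list was 4.29 and 4.24 in A35, against 4.12 to 8.27 and a median of 4.67 in the other arrays. Storage protein genes were not called in 17 probe sets (median −0.14), and their mean level in A35 was 4.35 and 4.24, below the median of all probe sets. The other arrays ran from 4.24 through a median of 4.42 to 7.64, and none was as low as A35 replicate 2. The A35 arrays were thus among those with little signal from endosperm markers. For the inhibitor and thionin list, 8 other arrays were at or below both A35 arrays. When the mean of 10 inhibitor probe sets was added to the model, 2140 probe sets were called, and 62 of the 63 called probe sets named in this text stayed called.

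The remaining lists held no call. Late seed and embryo genes (dehydrins and late embryogenesis proteins) had a mean level of 4.30 and 4.26 in A35, not shown to exceed background, as in the other arrays with 4.01 to 4.47. Their median differences were −0.08 for 34 photosynthesis probe sets, 0.02 for 4 of heat shock, cold and defence, 0.00 for 9 of dehydrins and late embryogenesis proteins, and 0.04 for 18 of histones. They were 0.01 for 9 of translation and 0.05 for 12 of the cytoskeleton. For 5 of transcription and hormones the median was −0.13, and for 4 of raftin1, an anther gene, −0.10. The photosynthesis list held 5 genes, and most of its probe sets were of rbcl. Of its 34, 10 were at or above the median level and 23 had negative differences. Its other genes were all negative, at −0.32 for PRK, −0.27 and −0.60 for FBP, −0.16 for OEE1, and −0.18 and −0.37 for OEE2. WZF1, a zinc finger gene of the transcription list, had 10.24 and 8.54 in A35 against 4.44 to 10.43 and a median of 7.07, and its 2.30 ± 0.76 did not pass (adjusted p = 0.075). RPS29, a ribosomal protein gene, had 6.61 and 4.79 at Ta.24254.3.S1_x_at against a median of 4.25 (adjusted p = 0.0654). At both of these probe sets replicate 1 carried most of the difference. The second RPS29 probe set, Ta.30687.2.S1_x_at, had 6.10 and 5.74 against a median of 5.96 (adjusted p = 0.838).

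At 343 probe sets (0.561%) both A35 arrays lay outside the range of all 66 other arrays, 248 (0.406%) above and 95 (0.155%) below. Of these, 238 and 62 were called. The other lines had a median of 58 such probe sets and a highest of 169, in F29. Most of these gaps were narrow: 4 probe sets above and 2 below were apart by at least 0.5 log2 units, and 2 by at least 1.

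Both of the widest gaps were on the low side, and neither probe set has a gene name here. Ta.94.1.S1_at measured 8.16 and 7.52 in A35. The other arrays were held between 9.76 and 10.34 around a median of 10.03. A gap of 1.60 log2 units separated A35 from the nearest array, and the 10 arrays of the lines left out, at 9.63 to 10.13, were on the far side of it too. The difference was −2.19 ± 0.10 (4.56-fold, adjusted p = 2.64e-18), and the highest adjusted p over the alternatives was 7.95e-12.

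Ta.25113.1.S1_at measured 6.32 and 5.88 in A35 and from 8.20 through 8.73 to 9.41 in the other arrays. The gap was 1.88 log2 units, and the arrays of the lines left out began at 7.65. The difference was −2.65 ± 0.13 (6.29-fold, adjusted p = 4.45e-17), with a highest adjusted p of 3.2e-08. For both probe sets A35 was the only line of the 34 on its side of the halfway point. They are thus unlike the probe sets with a low and a high class of lines described further on.

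The next probe sets on the low side had far smaller gaps. Ta.9618.1.S1_at measured 8.43 and 8.55 against 8.86 to 9.56, a gap of 0.31 and a difference of −0.70 ± 0.12 (adjusted p = 0.000325, highest 0.0655). TaAffx.24213.1.S1_x_at measured 4.89 and 4.67 against 5.16 to 6.73, and Ta.8811.1.S1_at measured 9.72 and 9.77 against 9.98 to 11.29. Lines left out reached below A35 at Ta.8811.1.S1_at, with 9.54. Between the second and the third probe set on the low side the gap thus dropped from 1.60 to 0.31.

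On the high side the widest gap was 0.59, at Ta.5331.2.A1_at and Ta.5331.1.A1_x_at. Ta.24122.2.S1_at, with a narrower gap, measured 7.53 and 7.00 in A35 against a median of 3.84 and a highest value of 6.50. The difference was 3.20 ± 0.24 (9.21-fold, adjusted p = 1.06e-11, highest over the alternatives 6.73e-05), and the lines left out reached 5.70. Its cluster partner Ta.24122.1.S1_at was also higher, at 7.32 and 7.21 against a median of 5.84 (1.33 ± 0.19, adjusted p = 1.92e-05). A35 was thus highest at both, but at the second the highest other array reached 7.34.

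At the other 4 probe sets of the high side a line left out came level with the lower A35 array or passed it. Ta.5331.2.A1_at measured 5.44 and 5.79 against 3.06 to 4.85 (1.92 ± 0.21, 3.78-fold, adjusted p = 7.15e-08), while the lines left out reached 6.08. Ta.5331.1.A1_x_at measured 8.09 and 7.70 against 3.50 to 7.11, and the lines left out reached 7.70. Ta.10236.1.A1_at measured 9.17 and 8.91 against 4.05 to 8.35, and Ta.10451.2.A1_x_at 10.81 and 10.61 against 7.48 to 10.05. In the lines left out these reached 9.00 and 10.98. The count outside all arrays accordingly fell from 343 to 208 when all 39 lines were used.

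Most called probe sets were not of this kind. The line mean of A35 was the most extreme of all 34 at 1993 of 2945 (67.7%), yet other lines usually came part of the way. Counting the other lines past the halfway point between the mean of the others and A35, the median was 4 for the higher and 5 for the lower probe sets. No other line was past it at 58 higher and 52 lower probe sets, and 10 or more were past it at 258 (12.3%) and 251 (29.4%).

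**Figure D3:**
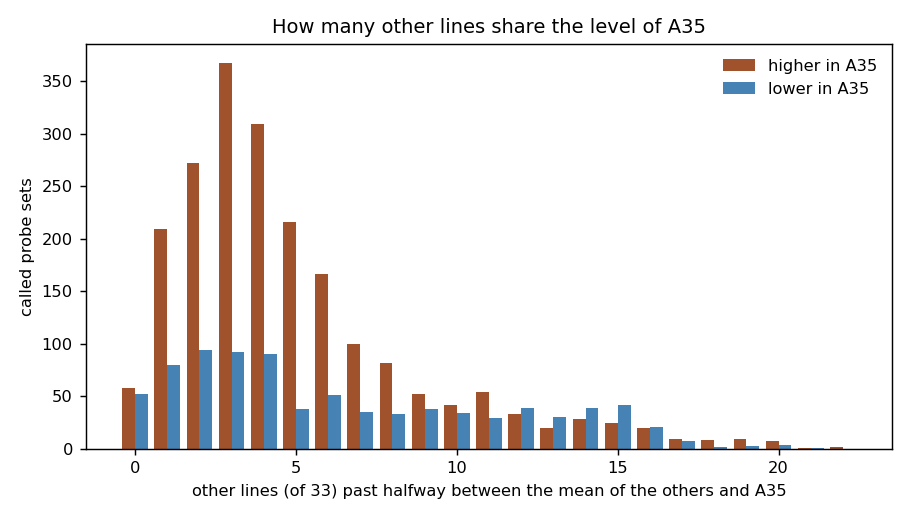
Number of called probe sets by how many of the 33 other lines lay past the halfway point between the mean of the others and A35, for probe sets higher (brown) and lower (blue) in A35. The counts peak at few lines, and the lower probe sets have a broad shoulder between 10 and 15 lines.

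The probe sets with many lines on the A35 side include those at which the lines formed 2 classes. Across all probe sets, 167 (0.273%) had a gap of at least 1 log2 unit between neighbouring means of the other lines with at least 5 lines on each side. A35 fell into the lower class at 95 and the upper class at 72, its arrays never fell on opposite sides, and its mean lay inside the gap at 2. At such a probe set a line of either class is far from the mean of all lines by construction, and 149 of the 167 (89.2%) were called. They made up 89 of the 854 lower calls (10.4%) and 60 of the 2091 higher calls (2.87%).

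Many of these probe sets divided the other lines in the same way. The 167 held 96 different divisions, of which 65 were held by 1 probe set, where A35 can be on 1 side only. At the 31 held by 2 or more probe sets A35 was on the same side for all probe sets of the division, and 11 of these were held by 3 or more. Some of the 31, such as that of Ta.3017.1.S1_at and Ta.3017.1.S1_x_at, came from 1 cluster. Agreement there can be a repeated reading of the same transcripts. The most frequent division had 13 lines low and 20 high. It was shared by 16 probe sets of 12 clusters, and A35 was low at all 16, with differences from −1.69 to −4.01 and a median of −2.87. The next had 17 lines low and 16 high at 8 probe sets of 8 clusters, and A35 was high at all 8, by 1.66 to 3.57.

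All of the 10 largest lower differences were of this 2-class kind. The largest was at Ta.9188.2.S1_at, with 3.66 and 2.85 in A35 against 3.06 to 8.61 and a median of 7.99 (−4.02 ± 0.30, 16.2-fold, adjusted p = 1.06e-11). By line means A35 shared the low class with 6 other lines, A10, A40, A81, A88, A91 and B10. The replicates of A40 measured 5.9 and 3.3. Ta.9188.1.S1_at of the same cluster was dim in every line and was not called, at 4.37 and 4.08 against a median of 4.30.

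Ta.5627.1.S1_at measured 5.22 and 5.13 in A35 against 4.84 to 12.19 and a median of 11.24 (−4.01 ± 0.56, 16.1-fold, adjusted p = 8.15e-06). It belongs to the division of 13 low lines, which are B10, B11, B68, C10, C22, C25, D15, DH91, E5, F29, F36, H23 and J15. Classes were drawn on line means, so the arrays of a listed line can disagree. At Ta.5627.1.S1_at H23 had 5.3 and 10.5, and F36 had 8.4 and 5.3. Ta.5627.1.S1_x_at, Ta.23366.2.S1_at, Ta.1942.2.S1_at and TaAffx.91902.1.A1_at divided the lines identically and differed by −3.67, −3.93, −3.63 and −3.58. The difference was confined to some probe sets of these clusters: Ta.1942.1.S1_at was at 12.77 and 12.92 in A35 against a median of 12.77, and Ta.23366.1.S1_at at 7.14 and 6.91 against 7.01, neither of them called.

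TaAffx.113846.1.S1_s_at measured 3.98 and 4.47 against 3.56 to 12.06, with 15 other lines low by their means (−3.93 ± 0.52, adjusted p = 4.21e-06). Among these lines F38b had 3.6 and 8.3. Ta.10217.1.A1_at was lower by −3.71 ± 0.70, and its cluster partners Ta.10217.2.S1_at and Ta.10217.3.S1_at were lower by −1.71 ± 0.41 and −1.58 ± 0.33, all 3 of them called. Ta.28263.1.S1_at was lower by −3.58 ± 0.73. Ta.28347.1.S1_s_at measured 9.60 and 9.08 in A35 against a median of 14.10 and a highest value of 14.36 (−3.45 ± 0.46, adjusted p = 5.11e-06). Of the 10, 8 stayed called without A35 replicate 1, 9 without replicate 2, and none with line as a random block, where the spread of the 2 classes is part of the error.

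**Figure D4:**
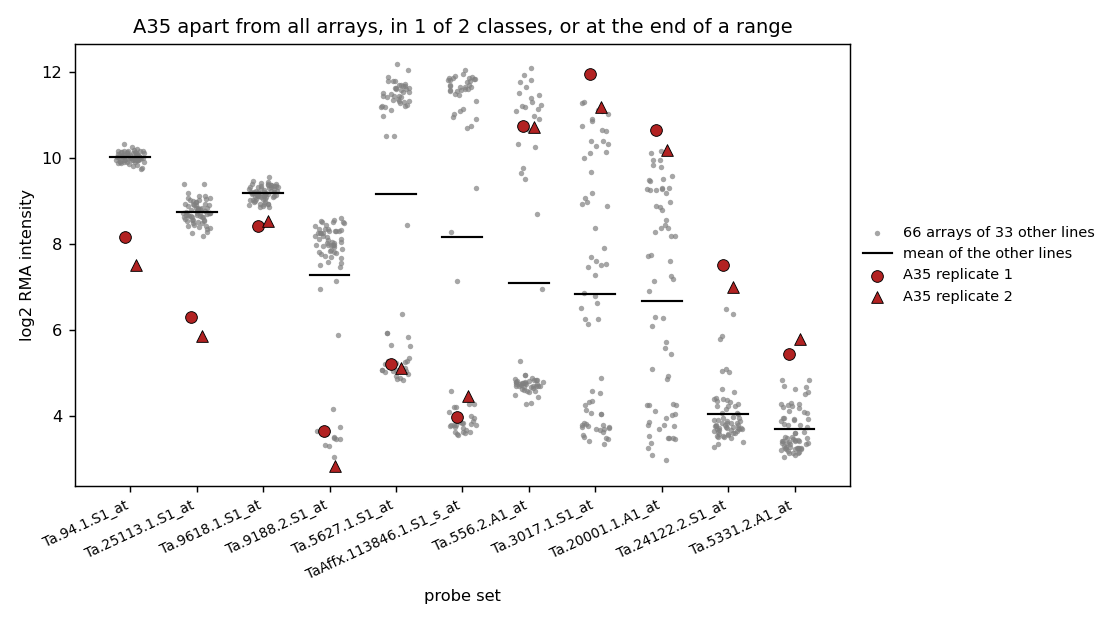
Log2 RMA intensity at 11 probe sets, with 1 grey point for each of the 66 arrays of other lines, a line for the mean of the other lines and red symbols for the 2 A35 arrays. From the left, A35 is apart from all arrays at Ta.94.1.S1_at and Ta.25113.1.S1_at, is in a class of several lines from Ta.9188.2.S1_at to Ta.556.2.A1_at, and is at or above the upper end of the others from Ta.3017.1.S1_at on.

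Of the 10 largest higher differences, 7 divided the other lines by the same rule. The largest was at Ta.3017.1.S1_at, with 11.97 and 11.18 in A35 against 3.36 to 11.30 and a median of 6.71 (4.72 ± 0.82, 26.4-fold, adjusted p = 0.00023). The other lines covered the whole range with 9 of them above the gap, and no line mean was as high as that of A35. Ta.3017.1.S1_x_at of the same cluster differed by 4.64 ± 0.78. Ta.20001.1.A1_at measured 10.65 and 10.20 against 2.99 to 10.16 (3.74 ± 0.69, adjusted p = 0.00048), and A35 was again the highest line.

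The next probe sets divided the means of the other lines by that rule as well. Ta.556.2.A1_at measured 10.76 and 10.73 against 4.29 to 12.09 and a median of 4.85. By line means A35 was inside an upper class of 11 other lines (3.63 ± 0.81, adjusted p = 0.0042). Lines B65, C58 and H23, low by their means, had arrays in both classes. Their replicates measured 9.7 and 4.7, 4.8 and 10.3, and 4.9 and 9.8. Ta.28744.1.S1_at measured 11.67 and 11.86 and had 16 other lines in the upper class (3.57 ± 0.72). TaAffx.14498.1.S1_at measured 9.40 and 9.44, with 11 others high (3.38 ± 0.46), and TaAffx.38460.1.S1_s_at 11.55 and 11.42 (3.36 ± 0.60).

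The last 3 of the 10 had few lines near A35. Ta.23271.1.S1_s_at measured 7.70 and 7.34 against a median of 3.37 and a highest value of 9.06 (3.39 ± 0.41, adjusted p = 6.56e-07), with 4 other lines past halfway. Ta.5824.2.S1_at measured 8.95 and 7.18 against a median of 4.09 and a highest value of 8.64 (3.45 ± 0.74, adjusted p = 0.00289), and Ta.5824.2.S1_x_at 9.04 and 7.39 (3.43 ± 0.70). Replicate 1 of A35 was much the higher array at Ta.5824. Of the 10 higher probe sets, 4 stayed called without A35 replicate 1, 8 without replicate 2, 5 with scan day fixed and none with line as a random block.

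At other probe sets where the series has 2 classes, A35 was in the low class at TaAffx.58902.1.S1_x_at (4.13 and 4.29, difference −2.96) and Ta.12445.1.A1_at (3.89 and 3.91, −1.31). It was in the high class at Ta.12020.1.A1_at (7.43 and 7.14, difference 1.46), Ta.30774.1.S1_at (7.54 and 7.61, 1.72) and Ta.6215.1.A1_at (9.15 and 9.36, 2.01), and its 12.63 and 12.03 at Ta.22975.1.S1_at gave no call (adjusted p = 0.136).

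Clusters were counted for names that begin with Ta and a number only. The TaAffx probe sets, 31.2% of those called, were not grouped. The other called probe sets came from 1671 clusters, of which 768 have 2 or more probe sets on the array. In 516 of the 768 only 1 probe set was called. In the other 252 clusters 2 or more were called, in 1 direction in 246 and in both in 6, and every probe set was called in 109. The 5 clusters described next had the most calls, with ties broken by the share called, so a high share in them is by choice. Ta.10329 also had 5 calls, of 39 probe sets, with 4 lower and 1 higher. Over all probe sets 3.42% were higher. All 6 probe sets of Ta.22825 were higher, and so were all 5 of each of Ta.392, Ta.5029, Ta.5161 and Ta.7314. Probe sets of a cluster can read the same transcripts, so these are repeated readings.

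Cluster Ta.22825 had its largest difference at Ta.22825.1.S1_at, with 7.40 and 6.02 in A35 against a median of 4.07 and a highest value of 6.32 (2.37 ± 0.36, 5.18-fold, adjusted p = 2.91e-05). Its other 5 probe sets were higher by 1.07 to 2.28. In Ta.5029 the probe set Ta.5029.2.A1_x_at measured 9.66 and 9.09 against 6.09 to 8.61 (2.20 ± 0.24, 4.61-fold, adjusted p = 1.31e-07). It stayed called in each alternative, with a highest adjusted p of 0.0187. In Ta.5161 the probe set Ta.5161.1.S1_at measured 10.86 and 10.53 against 7.61 to 10.25 (1.79 ± 0.26, adjusted p = 1.34e-05).

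Differences in the remaining pair of clusters were smaller. The 5 probe sets of Ta.392 were higher by 0.44 to 0.71, and 1 to 4 other line means were as high at all but 1 of them. The 5 of Ta.7314 were higher by 0.88 to 0.98, with no other line mean as high, and replicate 1 was above replicate 2 at each. Of these 26 cluster probe sets, 7 stayed called without A35 replicate 1 and 18 without replicate 2.

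Some of the other lines leaned toward A35 over the probe sets chosen by it and others leaned away. The median difference was positive in 16 of 33 over the higher set and negative in 16 of 33 over the lower set. Over the 2091 probe sets higher in A35 this median difference from the mean of the remaining lines was 0.42 in DH91, 0.26 in D39, 0.24 in DH95 and 0.23 in A81, and it was lowest in B65 at −0.25. Over the 854 lower probe sets it was −0.20 in DH91 and −0.14 in H10, and highest in F48 at 0.19. A35 itself was at 0.75 and −0.68, values fixed by the choice of the probe sets. DH91 was thus the line nearest to A35 over both sets.

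**Figure D5:**
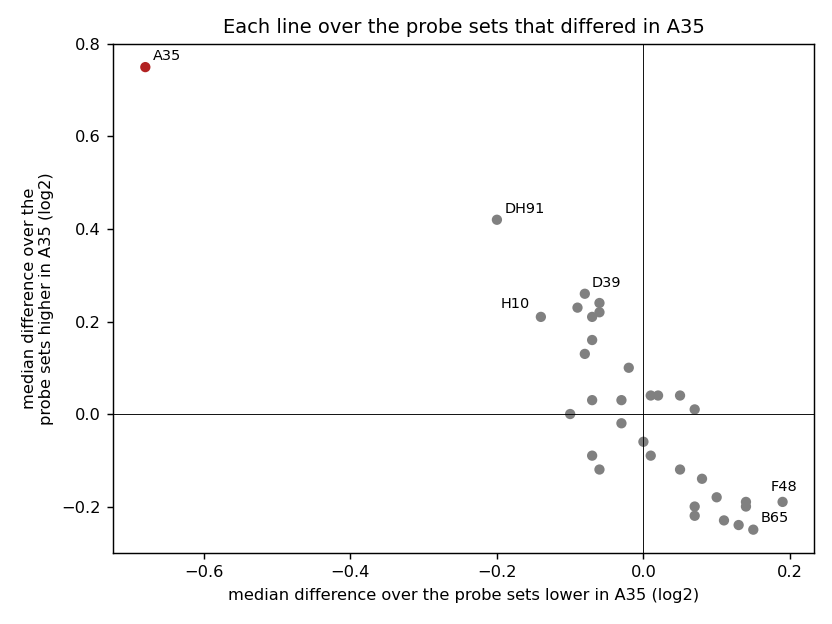
Median log2 difference of each of the 34 lines from the mean of its 33 others, over the 854 probe sets lower in A35 (horizontal) and the 2091 higher in A35 (vertical). A35 is at the upper left at −0.68 and 0.75, and DH91 is next at −0.20 and 0.42.

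The 2 A35 arrays, which together chose the called probe sets, contributed unequally. Replicate 1 was farther from the other arrays of its replicate number at 1419 of 2091 higher probe sets, with median differences of 0.84 and 0.66 in replicates 1 and 2. Among the 854 lower probe sets replicate 1 was farther at 332, with medians of −0.64 and −0.71. Set against the 9 arrays of its own scan day, replicate 2 had medians of 0.66 and −0.72, close to those against all arrays of its replicate number. No such value exists for replicate 1, so its scan day and its own differences cannot be told apart.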

How the data were processed

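Seed RNA of 39 lines was measured on 78 single-colour arrays. The deposited intensity values came from RMA, per the submitters' processing notes; other settings of that step are not given in the sources used here. They are linear, and log2 was taken here with no pseudocount. The table has 61290 probe sets, from which 111 controls and 64 reporters were dropped. The deposited scanner records (other) gave scan days only. Gene names came from the platform annotation updated through RefSeq, in which 1272 of 1273 annotated probe sets matched. limma 3.58.1 in R 4.3.3 was used, with 33 residual degrees of freedom, and the fit was tested on simulated data. Array number limits the precision.

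The line, its members and all gene lists were chosen with earlier results of these data known. Text names LTP3 and cys1, each called named gene, the 10 largest differences each way at or above the median level, the 5 widest gaps each way outside all other arrays, the lowest p of each list, and 5 frequent clusters. A pollen and anther list found no probe set once a malate transporter taken by its pattern was removed; raftin1 was added by name, and amylase inhibitors were removed from the transcription list. The annotation tables give no role for cys1.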

Additional observations from a re-analysis of the deposited data

How the results depend on the processing

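The count of 2945 called probe sets stayed within 1.5 times under most alternatives: 2326 with scan day as a random block, 2177 with only H8 left out, 3676 with array weights, 2704 after a further quantile normalization, 2994 after scaling to the 75th percentile, 2910 without arrays of unusual wash record, and 2760 to 3177 when each of 66 other arrays was left out. It fell to 529 with scan day fixed, 1743 with all 39 lines and 96 with line as a random block, and it was 560 to 1154 without 1 A35 array. With only the brighter probe sets tested, 2719 of 30558 were called, a count over fewer probe sets than the others. The count outside all other arrays was 208 with all 39 lines. The 6 calls in gene lists became 4 with 1 probe set per gene. None of the 63 called probe sets named changed sign in the alternatives named here other than the single other arrays left out; 12 of 31 uncalled ones given did. List medians, clusters and divisions were not recomputed. Leaving out the replicate block gave 2103 calls, all of them among the 2945. Over 561 pairs of lines the differences of replicate 2 from replicate 1 correlated at 0.157 on average, from −0.569 to 0.685. The correlation was above 0.1 in 59.5% of pairs, so replicate number carried some deviation shared across lines, unevenly. Covariates added after seeing the data gave 2140 (inhibitor mean) and 1996 (3′ minus 5′). Of 63 called probe sets named, 26 stayed called with scan day fixed, 26 and 46 without replicate 1 and 2, and 10 with line as a random block. The cause was not tested. Over all probe sets, 239 were called with scan day fixed and without either A35 array, 161 higher and 78 lower.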
